A study of Mus musculus with 4 samples.

Results

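The genes described here belong to the BCL2 family and control survival at the mitochondrion. They were named as a list of 10 family genes outside the p53 targets, chosen by family membership with the knockout against wild type values of these data already known. Of the 10, 8 matched a row among the 13614 genes of the count table, namely Mcl1, Bcl2l1, Bcl2, Bcl2a1a, Bid, Bcl2l11, Bak1 and Bok. Bcl2a1b and Bcl2a1d were not analysed here. Because of that choice, every difference below describes these libraries, and the adjusted p-values come from a fit over all 13614 genes.

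The cells were fetal liver cells taken from mouse embryos at embryonic day 14.5 to 16.5. Both genotypes received MSCV-MLL-AF9-IRES-GFP, a retroviral vector that carries the leukemia fusion MLL-AF9 beside GFP, and GFP+ cells were sorted and are called leukemia-initiating cells by the study. There were 2 wild type (Prl2+/+) and 2 Prl2 knockout (Prl2-/-) libraries, and they differ by label in that genotype alone. Prl2 is now called Ptp4a2 and encodes the phosphatase PRL2. The labels give no strain and name no separate embryo or culture behind each replicate. The p-values therefore reflect library-to-library spread alone. The wild type libraries differed in sex-linked genes, as given below, so their spread is not purely technical. The knockout libraries differed from each other too, as in Ltf (1937 and 6293 counts) and Fosb (2329 and 7247 counts). The source of that spread was not tested.

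BCL2 family proteins decide whether the outer mitochondrial membrane is opened. Anti-apoptotic members such as MCL1, BCL-XL, BCL2 and A1 hold the effectors BAK and BAX in check, and BH3-only proteins such as BIM and BID relieve that block or activate the effectors directly. BOK is a further effector-like member. Myeloid progenitors and MLL-fusion leukemias are known for their reliance on MCL1 and BCL2.

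In mm10 the deposited coordinates place Bok (ENSMUSG00000026278.14) at chr1:93685660-93695764 on the plus strand and Bcl2a1a (ENSMUSG00000102037.1) at chr9:88956900-88962419 on the plus strand. Mcl1 lies at chr3:95658788-95663176 (plus), Bcl2l1 at chr2:152780668-152831728 (minus) and Bcl2 at chr1:106538178-106714274 (minus). Bcl2l11 lies at chr2:128126038-128162547 (plus), Bid at chr6:120891930-120916853 (minus) and Bak1 at chr17:27019810-27029009 (minus).

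Bcl2a1 is present in the mouse genome as several near-identical copies, which limits what a count of Bcl2a1a means. The first 60 coding bases of the copies on chromosome 9 (GENCODE M21 transcripts, mm10) are shown 5′ to 3′ because they hold 6 of the 12 coding positions at which the 3 copies are not all alike. Capitals mark those positions.
Bcl2a1a: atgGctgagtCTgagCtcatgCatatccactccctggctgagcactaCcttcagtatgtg
Bcl2a1b: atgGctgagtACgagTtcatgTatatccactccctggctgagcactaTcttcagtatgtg
Bcl2a1d: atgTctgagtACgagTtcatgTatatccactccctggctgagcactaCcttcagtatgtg
Over 516 coding bases before the stop codon, Bcl2a1a was identical to Bcl2a1b at 97.9% and to Bcl2a1d at 98.6% of positions. Of all 50-base windows of the Bcl2a1a transcript, 67.7% occur without a mismatch in another copy, and 43.5% of 100-base windows do. The handling of reads that match several places is not given in the sources used here, so the counts of Bcl2a1a are uncertain between the copies.

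The promoter of Bcl2a1a is shown because it is the member with the lowest knockout values relative to wild type. Its window in RefSeq (GRCm38.p6, chr9:88956670-88956969, plus strand) holds GAGGAA, the ETS core found in PU.1 sites, 3 times counting both strands, of which a pair lie end to end. Capitals mark GAGGAA or its complement.
Bcl2a1a promoter: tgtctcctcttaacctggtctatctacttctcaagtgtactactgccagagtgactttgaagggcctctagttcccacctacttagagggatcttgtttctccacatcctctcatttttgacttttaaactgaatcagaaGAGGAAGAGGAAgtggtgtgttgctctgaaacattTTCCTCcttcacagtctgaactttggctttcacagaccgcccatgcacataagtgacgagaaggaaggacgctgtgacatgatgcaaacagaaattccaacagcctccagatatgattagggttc
The corresponding windows of Bcl2a1b and Bcl2a1d hold the motif 4 and 2 times. GAGGAA occurs in 28.3% of the 32851 promoter windows of the same length, so its presence does not set Bcl2a1a apart. The promoter of Bok, the member with the highest knockout values relative to wild type, is shown beside it (GRCm38.p6, chr1:93685325-93685624, plus strand). This window ends before the deposited start of Bok, while the Bcl2a1a window spans the deposited start of Bcl2a1a. Capitals mark CG.
Bok promoter: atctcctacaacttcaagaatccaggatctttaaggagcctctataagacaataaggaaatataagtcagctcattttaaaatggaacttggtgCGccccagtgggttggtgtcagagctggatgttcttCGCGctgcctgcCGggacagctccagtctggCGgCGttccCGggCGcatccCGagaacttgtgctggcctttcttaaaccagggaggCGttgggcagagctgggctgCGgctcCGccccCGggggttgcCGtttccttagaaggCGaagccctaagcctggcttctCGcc
It holds 16 CG dinucleotides against 3 in the Bcl2a1a window and a median of 7 over all windows. As few or fewer were found in 68.6% of all windows for Bok and in 31.4% for Bcl2a1a, so neither count is extreme. GTAAACA, a FOXO motif, occurred in a Bcl2l11 window and in no other member's window, and in 3.65% of all windows. Neither TTCNNNGAA, a STAT motif (8.30% of windows), nor the searched NF-kB motif (0.411%) was found in the 13 windows of the 10 genes. Both strands were searched, and a missing match says only that these letters are not in these windows.

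Libraries held 14625725 to 15422309 counts. Ptp4a2 had 4884 and 5105 counts in the wild type and 89 and 104 in the Prl2 knockout, so each library matched its label. Wild type replicate 1 stood apart in sex-linked genes, with 11147 Xist counts against 3 to 12 in the other libraries and 12 Ddx3y counts against 1173 to 1320. Hepatocyte markers were nearly absent (1 of 7 measured, the transferrin gene Trf, at 15 to 29 counts), while the myeloid transcription factor gene Spi1 had 7802 to 9139 counts.

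Set on a scale corrected for gene length (TPM, the share of transcripts over the genes of the table), Mcl1 was the most abundant member, between 348 and 439 TPM. Bak1 followed at 181 to 210.6 TPM and Bid at 147 to 179 TPM. These ranges did not overlap with each other. Bcl2l1 lay lower, at 34.0 to 39.4 TPM, and above Bcl2 at 13.5 to 27.3 TPM. The range of Bcl2 overlapped that of Bcl2l11 at 12.5 to 16.1 TPM, so the order of that pair is not settled beyond the spread. Bok and Bcl2a1a came last, in opposite orders in the genotypes. Bok reached 1.02 and 0.111 TPM in the wild type and 4.10 and 5.89 TPM in the knockout, while Bcl2a1a was at 4.31 and 4.22 against 0.511 and 0.764 TPM. Mcl1 alone made up 87.0% to 89.0% of the summed TPM of the 4 anti-apoptotic members in each library.

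**Figure D1:**
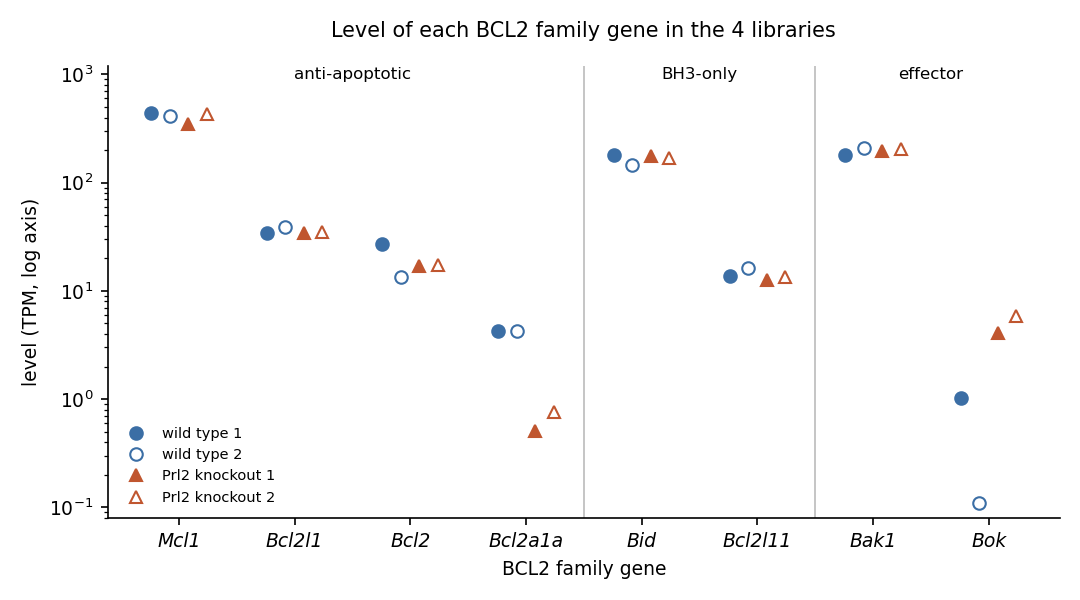
Level of each measured BCL2 family gene (TPM, log axis) in the 2 wild type (circles) and 2 Prl2 knockout (triangles) libraries, grouped by role. Mcl1 is highest throughout, 6 genes have similar levels in both genotypes, and Bcl2a1a and Bok lie lowest, with their genotypes apart in opposite directions.

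Between genotypes, 0 of the 8 measured members were called at an adjusted p of 0.05 or less by edgeR's quasi-likelihood test, where 0.00735% of all genes (1, Ptp4a2) were. At an unadjusted p under 0.05 there was 1 member with higher values in the knockout (Bok) and 1 with lower values (Bcl2a1a), beside 5.66% and 4.23% of all genes. Of the 8, 6 had a negative log2 fold change, with a median of -0.16 against -0.01 over all genes. The knockout values lay wholly above the wild type values in 1 member and wholly below in 3, beside 22.2% and 21.9% of all genes. In bulk RNA, fewer cells that express a gene and less RNA per cell cannot be told apart.

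Among the anti-apoptotic members, Mcl1, whose short-lived protein restrains BAK, had 7230 and 6937 counts in the wild type and 5681 and 7069 in the knockout. In CPM (counts relative to library size, scaled by TMM factors) this was 484 and 467.2 against 372 and 466.9, so only Prl2 knockout replicate 1 stood clearly lower. The log2 fold change was -0.18 (SE 0.1405, 95% interval -0.53 to 0.17, edgeR quasi-likelihood adjusted p = 0.684), and it was -0.03 without that library. Bcl2l1, which encodes BCL-XL and is known for protecting maturing erythroid cells, had 754 and 887 counts in the wild type and 745 and 768 in the knockout. Its groups overlapped, and the difference was -0.15 (SE 0.133, 95% interval -0.48 to 0.18). It was -0.28 without wild type replicate 1 and -0.03 without wild type replicate 2.

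Bcl2, the founding survival gene of the family, had 1204 and 606 counts in the wild type and 746 and 770 in the knockout. The wild type libraries thus lay on either side of a tight knockout pair, at 80.5 and 40.8 CPM against 48.8 and 50.9 CPM. The log2 fold change was -0.28 (SE 0.345, 95% interval -1.21 to 0.65, edgeR quasi-likelihood adjusted p = 0.812). Without wild type replicate 1 it was 0.28 and without wild type replicate 2 it was -0.70, so the sign rests on that library. Wild type replicate 1 was also the library with the highest summed CPM of the 4 measured megakaryocyte markers (60.9 against 18.7 to 27.0 in the others), of which Itga2b made up 43.1 CPM, while Gp9 was higher in wild type replicate 2. It was highest as well for the erythroid (31.9 against 5.36 to 15.3), mast cell and basophil (506 against 357 to 494) and endothelial and stromal sums (395 against 204 to 310.1). Pecam1 made up 393 CPM of the last sum, while Col1a1 and Col1a2 were highest in wild type replicate 2. Of the mast cell and basophil markers, Gata2 and Cpa3 were highest in wild type replicate 1. Kit was lowest there (235.5 against 259 to 315 CPM), and Mcpt8 and Ms4a2 were highest in wild type replicate 2. The part of these sums in the Bcl2 value was not tested.

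Bcl2a1a, an NF-kB-inducible survival gene of leukocytes, had 17 and 17 counts in the wild type and 2 and 3 in the knockout. The groups did not overlap, and neither did the wild type intervals of 9.90 to 27.2 counts and the knockout intervals of 0.242 to 7.23 and 0.619 to 8.77 counts (exact Poisson, 95%, counting error only). Summed over libraries, 34 against 5 counts give a wild type level 6.94 times that of the knockout, with a counting interval of 2.70 to 22.7. In the fit over all genes the log2 fold change was -2.73 (SE 0.594, 95% interval -4.20 to -1.27, edgeR quasi-likelihood adjusted p = 0.474). The authors' deposited table gives -2.73 with an adjusted p of 0.0429. Leaving out each library in turn gave -3.05 to -2.48. Markers of erythroid cells were lower in the knockout too, in 6 of 6 measured genes, with a summed level of 15.3 to 31.9 CPM in the wild type and 5.36 to 10.7 CPM in the knockout. The 3 measured B-cell markers were lower as well, at 442 to 477 against 308.5 to 363 CPM, while Pax5 and Ebf1 were not analysed here. Their part in the Bcl2a1a value was not tested.

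Of the BH3-only members, Bid, which caspase-8 cleaves to link death receptors to mitochondria, had 3055 and 2558 counts in the wild type and 2965 and 2876 in the knockout. The knockout pair lay between the wild type libraries, and the log2 fold change was 0.03 (SE 0.120, 95% interval -0.27 to 0.32). Bcl2l11, which encodes BIM and is known to limit the lifespan of myeloid cells, had 527 and 637 counts in the wild type and 479 and 514 in the knockout. Both knockout libraries lay below both wild type libraries, by a margin smaller than the gap between the wild type libraries. Its log2 fold change was -0.26 (SE 0.152, 95% interval -0.64 to 0.12, edgeR quasi-likelihood adjusted p = 0.595). It ranged from -0.41 without wild type replicate 1 to -0.12 without wild type replicate 2. Morrbid, a neighbouring long noncoding RNA gene known in mice to repress Bcl2l11, was named after its values were seen. It had 318 and 382 counts in the wild type and 266 and 374 in the knockout, and its groups overlapped (log2 fold change -0.16, SE 0.226).

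Among the effectors, Bak1, which encodes the pore-forming BAK, had 2103 and 2492 counts in the wild type and 2247 and 2344 in the knockout. The knockout pair lay inside the wild type range, with a log2 fold change of -0.03 (SE 0.123, 95% interval -0.34 to 0.27). Of its exonic bases, 25.5% are shared with Ggnbp1 on the opposite strand, and 17.7% of those of Bid with Bcl2l13. Whether counting used strand is not given in the sources used here. Ggnbp1 had 11 to 23 counts and Bcl2l13, itself a family gene, 1123 to 1476.

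Bok, which encodes a BAX-like effector kept low by constant degradation, had 9 and 1 counts in the wild type and 36 and 52 in the knockout. Every knockout count was above every wild type count, and the exact Poisson intervals (95%) of 4.12 to 17.1 and 0.0253 to 5.57 in the wild type did not reach those of 25.2 to 49.8 and 38.8 to 68.2 in the knockout. Summed over libraries, 88 against 10 counts give a knockout level 8.62 times that of the wild type, with a counting interval of 4.47 to 18.6. The fit over all genes gave a log2 fold change of 3.08 (SE 0.799, 95% interval 1.09 to 5.07, edgeR quasi-likelihood adjusted p = 0.474), and the authors' deposited table gives 3.08 with an adjusted p of 0.0316. The size rests on the wild type libraries, since it was 5.25 without wild type replicate 1 and 2.25 without wild type replicate 2. Of the 4 measured eosinophil markers, all had a positive log2 fold change and 3 had groups that did not overlap, while Epx overlapped (258 and 139 wild type counts, 185 and 251 knockout counts). Prg2 and Prg3 were the most abundant. Their summed level was 1639 and 754 CPM in wild type libraries against 2494 and 3184 CPM in knockout libraries, an order of the libraries that Bok shares. The summed level of the 7 measured monocyte and macrophage markers had the same order, at 837 and 724 against 1048 and 1349 CPM. The list was mixed, with 4 genes higher and 3 lower. Adgre1, the most abundant, gave 285 and 251 CPM of that sum in the wild type and 323 and 537 CPM in the knockout. Vcam1 gave 25.8 and 110 CPM in the wild type and 397 and 454 CPM in the knockout, so its wild type libraries had the reverse order of Bok. Csf1r and Ccr2 had knockout values wholly below the wild type values (log2 fold changes -0.50 and -0.96). The part of either marker sum in the Bok value was not tested.

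**Figure D2:**
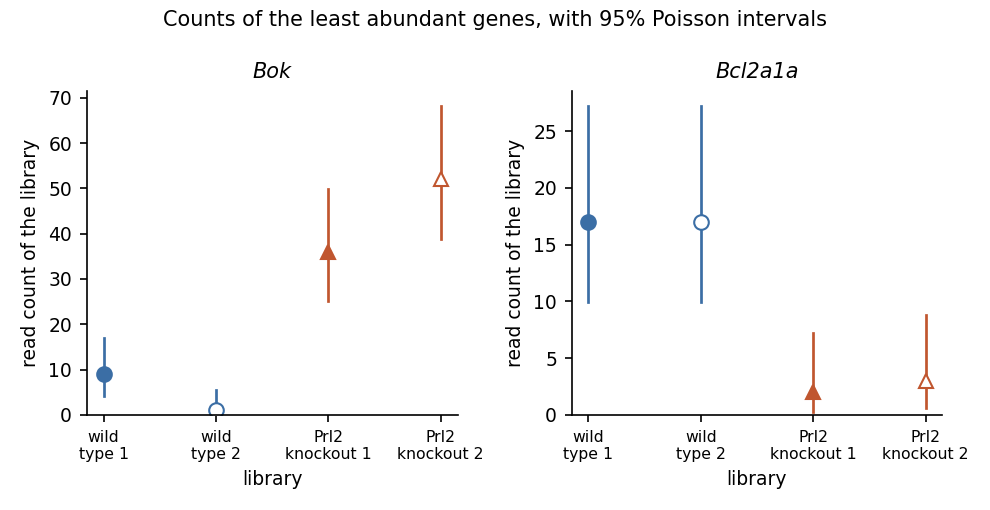
Read counts of Bok and Bcl2a1a in each library (linear axes from 0) with exact 95% Poisson intervals for counting error. Bok has 36 and 52 counts in the knockout against 9 and 1 in the wild type, Bcl2a1a 2 and 3 against 17 and 17, and in neither gene do the intervals of the 2 genotypes meet.

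edgeR's likelihood ratio test called Bok and Bcl2a1a, 2 of the 8 members, where it called 0.477% of all genes (65). Its adjusted p-values for them equal those of the authors' deposited table as printed, so the pair of results is not independent. DESeq2 called 0 of the 7 members to which it gave an adjusted p, Bcl2a1a having none, beside 0.718% of all genes with one. limma-voom called 0 of the 8, beside 0.00735% of all genes. Both genes lie below 4 CPM in every library, and the filter at a CPM of 5 or more in 2 libraries removed them.

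**Figure D3:**
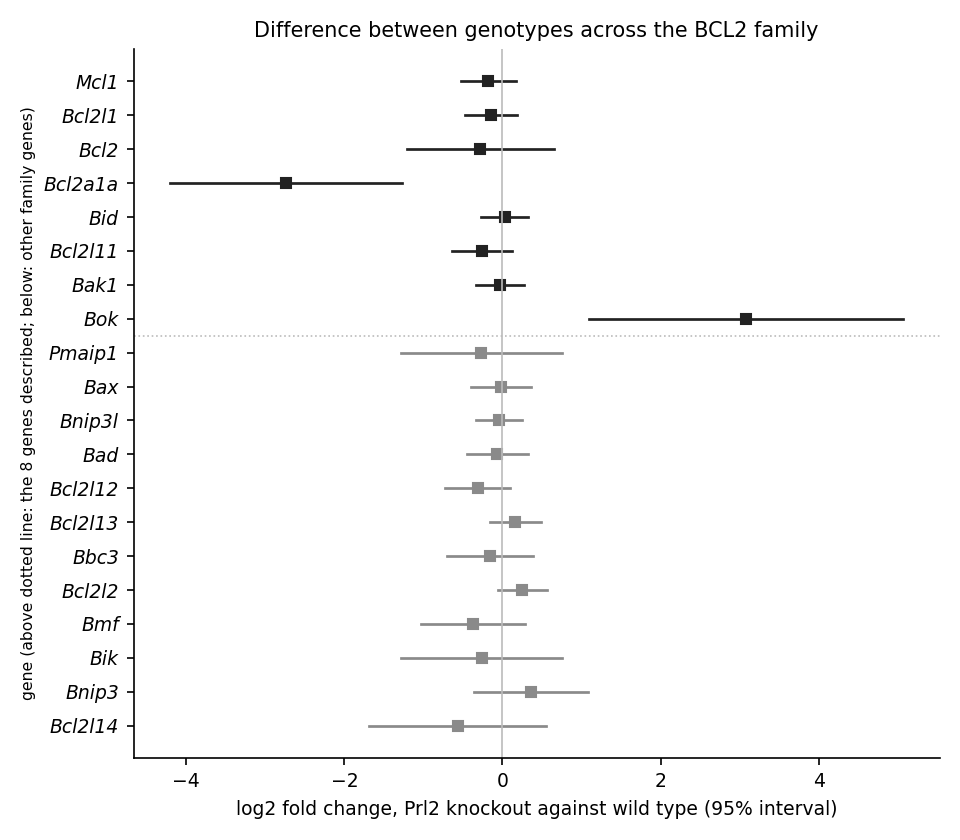
Log2 fold change with 95% interval (edgeR quasi-likelihood fit) for the 8 members above the dotted line and 12 other measured BCL2 family genes below it. The intervals of Bcl2a1a (-4.20 to -1.27) and Bok (1.09 to 5.07) do not include 0, and those of the other 18 do.

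Chromosomal neighbours of Bok had smaller log2 fold changes than Bok itself. Of the 5 genes within 100 kb of Bok, Farp2 had 7 and 16 wild type counts against 26 and 30 knockout counts (log2 fold change 1.24, SE 0.533, edgeR quasi-likelihood adjusted p = 0.518), and Thap4, which lies closest, had -0.04. These genes were named after their values were seen. By profile, the genes nearest to Bok among 9397 whose mean log2 CPM reached 3 were Slc22a3, Ikzf3 and Cd302, at Euclidean distances of 1.31 to 1.46 on centred log2 CPM over the 4 libraries. All are low in wild type replicate 2 and highest in Prl2 knockout replicate 2. The nearest to Bcl2a1a were Ldhb (0.121), Wfdc21 (0.588) and Lrg1 (0.825), and the nearest to Mcl1 were Ing2, Cbr1 and Txnl4b (0.00635 to 0.0505). With 4 libraries many genes share a profile, and the distances are a description.

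Summed over the measured members, anti-apoptotic transcripts were at 505 and 469.9 TPM in the wild type and 399.7 and 484 TPM in the knockout. Pro-apoptotic transcripts (Bid, Bcl2l11, Bak1 and Bok) were at 374.5 and 373.5 against 387 and 391 TPM. The log2 ratio of the former to the latter was 0.43 and 0.33 in the wild type and 0.05 and 0.31 in the knockout, so Prl2 knockout replicate 1 stood lowest. The genotypes differed by -0.20 with a pooled SD of 0.14, and by -0.07 without Prl2 knockout replicate 1 and -0.33 without Prl2 knockout replicate 2. Without Mcl1 and Bak1 the difference was -0.32, with both knockout libraries (-1.89 and -1.82) below both wild type libraries (-1.56 and -1.51). No test was made of these sums.

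**Figure D4:**
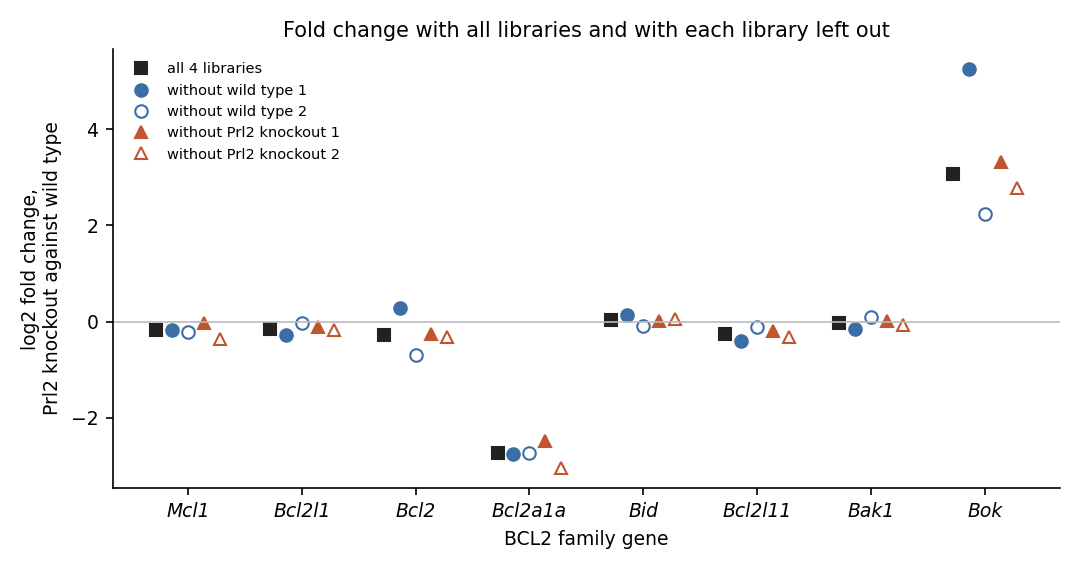
Log2 fold change of each member with all 4 libraries (squares) and with each library left out (circles and triangles). Bcl2 goes from -0.70 to 0.28 depending on which wild type library is left out, Bok from 2.25 to 5.25, and Bcl2a1a stays between -3.05 and -2.48.

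Other genes of the pathway were taken from lists chosen with earlier results of these data known. Of 12 other measured BCL2 family genes, 0 were called by the quasi-likelihood test and 0 had an unadjusted p under 0.05, with 9 negative log2 fold changes and a median of -0.11. Bcl2l2, the survival gene of BCL-W, had 482 and 485 wild type counts against 580 and 596 knockout counts (log2 fold change 0.25, SE 0.123). The p53 targets Bax and Pmaip1, which encode an effector and the MCL1-binding protein NOXA, had -0.01 (SE 0.153) and -0.27 (SE 0.369). Bnip3l, a mitophagy receptor, had -0.05 (SE 0.117), and Bcl2l12 had -0.32 (SE 0.165).

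In the list of 15 apoptosome, caspase and mitochondrial channel genes, 0 were called. At an unadjusted p under 0.05, 2 had higher knockout values, beside 5.66% of all genes. With each library's trend on gene length removed, 1 had higher values at that threshold, beside 3.83% of all genes. Apaf1, the scaffold of the apoptosome, was among the 2 as first fitted, with 2644 and 2478 wild type counts against 3287 and 3184 knockout counts. Its log2 fold change was 0.31 (SE 0.0987), and 0.18 with the length trend removed, and its groups did not overlap. Vdac2, the channel that holds BAK at the mitochondrion, had -0.12 (SE 0.107), Vdac1 0.05 (SE 0.0956) and Casp8, the initiator that cleaves BID, 0.04 (SE 0.143). Of 8 inhibitor of apoptosis genes, 0 were called, with 4 positive and 4 negative log2 fold changes and a median of 0.02. At an unadjusted p under 0.05, 2 had higher values and 1 lower, beside 5.66% and 4.23% of all genes. With the length trend removed, 1 had higher and 1 lower values, beside 522 and 523 of all 13614 genes. The lower gene was Birc2 (783 and 699 wild type counts, 605 and 603 knockout counts, log2 fold change -0.32), named after its values were seen. The direct caspase inhibitor gene Xiap had 0.29 (SE 0.102), and 0.16 with the length trend removed. Birc5, which encodes survivin, had 0.05 (SE 0.127). Naip2, a sensor of bacterial secretion proteins that carries the same domain, had 1352 and 1651 counts against 2206 and 2622 (log2 fold change 0.66, SE 0.151, edgeR quasi-likelihood adjusted p = 0.474). Naip2 has close paralogs, so its counts are uncertain between copies.

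Genes whose products degrade, stabilise or bind member proteins had the highest median of the 5 pathway lists. Of 11 measured, 10 had a positive log2 fold change, with a median of 0.37, and 5 had an unadjusted p under 0.05 with higher values, beside 5.66% of all genes, but 0 were called by the quasi-likelihood test. Usp9x, a deubiquitinase that stabilises MCL1, had 973 and 1022 wild type counts against 1678 and 1387 knockout counts (log2 fold change 0.59, SE 0.129). Itpr1, an inositol trisphosphate receptor of the kind that binds BOK, had 0.41 (SE 0.0992). Cdc20, part of a mitotic ubiquitin ligase that targets MCL1, had 0.25 (SE 0.151), and Gsk3a, a kinase that marks MCL1 for degradation, 0.21 (SE 0.126). These genes are long, with a median deposited length of 9831 bp against 3930 bp over all genes. With each library's trend on gene length removed, the median of the list was 0.23, and 2 of its genes had higher values at an unadjusted p under 0.05, beside 3.83% of all genes. Usp9x was then at 0.40 and Itpr1 at 0.20, both lower than as first fitted. Cdc20 was at 0.34 and Gsk3a at 0.25, both higher.

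Of 14 transcription factor genes known to regulate members, 0 were called and 5 had a positive log2 fold change, with a median of -0.05. Nfkb1, a subunit of NF-kB, which drives Bcl2a1, had 4990 and 4769 counts against 5856 and 5995 (log2 fold change 0.25, SE 0.101), while its partner gene Rela had -0.10 (SE 0.0995). Stat3, a cytokine-activated factor upstream of Mcl1, had 0.24 (SE 0.0980). Both long genes, Nfkb1 and Stat3, were at 0.09 and 0.12 once the length trend was removed. Myb, an activator of Bcl2, had -0.18 (SE 0.139), and Spi1, which encodes PU.1, -0.03 (SE 0.133).

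**Figure D5:**
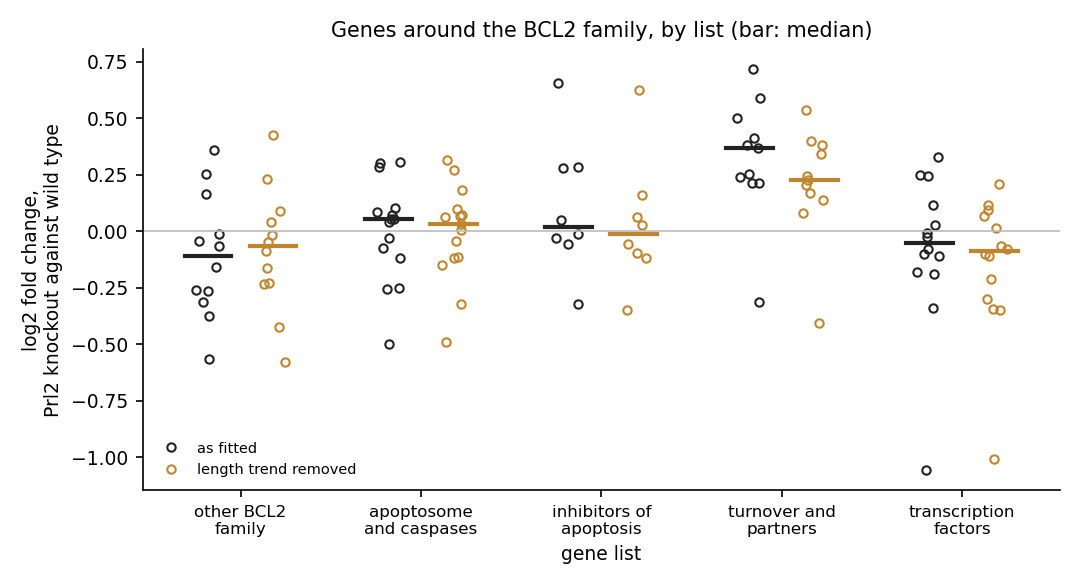
Log2 fold change of each measured gene in 5 lists around the BCL2 family (points) with the list median (bars), as fitted and with each library's trend on gene length removed. The list of turnover and partner genes lies highest, with a median of 0.37 as fitted and 0.23 after removal of the length trend.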

How the data were processed

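RNA-seq was deposited as 1 table of read counts per gene for 4 libraries, grouped by the genotype in their titles. The submitters' processing notes name featureCounts, STAR, Bowtie2 and mm10, without versions or roles. The authors' deposited table also holds log2 CPM and log2 RPKM values, gene lengths, and per gene the p-value (raw and adjusted) and log2 fold change of the authors' own comparison. It was filtered before deposit, with at least 23 counts per gene over the libraries.

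The test was edgeR 4.0.16 under R 4.3.3 (TMM, filterByExpr, which kept all 13614 genes, robust quasi-likelihood fit, genotype as the single term, two-sided, Benjamini-Hochberg over all genes). The SE is the log2 fold change divided by the root of F. Intervals are at 95%. CPM and TPM were computed from the counts, TMM factors and deposited lengths. DESeq2 1.42.0, limma-voom (limma 3.58.1), edgeR's likelihood ratio test, RLE scaling, filters, omitted libraries, a replicate block and removal of each library's length trend were alternatives. The fit was also run on simulated counts with known fold changes. Their spread followed the trend over all genes, with no spread of each gene's own. That run therefore cannot show how the fit performs on these libraries. Libraries of 14625725 to 15422309 counts give Bok and Bcl2a1a 1 to 52 counts each, which limits their precision.

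The members and lists were chosen with earlier results of these data known. Named genes are all members and Ptp4a2 and, of each list, called genes, the 3 with the highest TPM and the 2 with the smallest p, the 2 most abundant markers where a marker list is given, and the 3 genes nearest in profile to Bok, Mcl1 and Bcl2a1a. Some genes that meet this rule are not reported here. Any other gene was named after its values were seen. Sequences are from RefSeq (GRCm38.p6, promoter windows for all 10 genes) and GENCODE M21.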

Additional observations from a re-analysis of the deposited data

How the results depend on the processing

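Over 13 alternatives the log2 fold changes of the 8 members gave 102 values, of which 94 kept their sign and their side of the threshold, 5 changed sign, 2 passed the threshold and 1 had no adjusted p. Bok and Bcl2a1a passed it under edgeR's likelihood ratio test alone, which called 2 members and 65 genes in all, with adjusted p-values of 0.0316 and 0.0429. Over all alternatives these ran up to 0.884 for each. DESeq2 called 92 genes and 0 members, and gave no adjusted p for Bcl2a1a. Leaving out each library in turn gave 0 to 8 called genes and 0 called members, with log2 fold changes of -0.70 to 0.28 for Bcl2, -0.16 to 0.10 for Bak1, -0.10 to 0.14 for Bid and 2.25 to 5.25 for Bok. A lone library is then assumed to vary like the other group. With the length trend removed Bak1 was at 0.0257. For signs this close to 0 the cause was not tested.

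The titles share replicate numbers, but nothing shows that they pair the samples, as same-numbered deviations correlated at -0.14. With a replicate block 0 members and 1 gene were called. A crossed pairing, added after the data were seen, also gave 0 and 1. A sum over the Bcl2a1 copies was not run because of the copies only Bcl2a1a was analysed here. The filter at a CPM of 5 removed Bok and Bcl2a1a, so it gives no value for them. The log2 ratio of summed anti-apoptotic to pro-apoptotic levels, -0.20 in the main analysis, ran from -0.33 to -0.07 with 1 library left out. Depth limits Bok and Bcl2a1a most, at 1 to 52 counts.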
